A study of Mus musculus with 13 samples.

Results

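The translation initiation and elongation factors are the genes whose products start and extend protein synthesis on the cytosolic ribosome. They were taken by gene symbol, as every row of the count table that begins with Eif1 to Eif6 or with Eef1 or Eef2, and 7 pseudogene symbols were left out. This gave 65 genes of the 32544 symbols listed, and 63 of them were among the 12496 genes with enough counts to be tested. The genes were compared between lungs of WT male C57BL/6J mice, 7 weeks old at purchase, kept for 5 days in 21% oxygen (normoxia, n = 7 libraries) or in 80% oxygen (hyperoxia, n = 6 libraries). No transgene, deletion or drug is named for either group, and lungs were perfused with cold buffered saline and flash frozen. RNA was measured by Quant-seq, which reads the 3′ ends of polyadenylated transcripts, so a count is a read near the end of a transcript, without molecular identifiers to tell copies apart, and it gives no information on splicing or protein level.

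Initiation begins when eIF2, bound to GTP and the initiator tRNA, joins the small ribosomal subunit with eIF1, eIF1A, eIF3 and eIF5. The mRNA is brought in by eIF4F, made of the cap-binding protein eIF4E, the scaffold eIF4G and the helicase eIF4A, and 4E-BP proteins block this step by occupying eIF4E. After start codon recognition, eIF5 triggers GTP hydrolysis on eIF2 and eIF5B joins the large subunit, and eIF2B recharges eIF2 with GTP unless stress-activated kinases have phosphorylated eIF2α. Elongation is carried by eEF1A, which delivers aminoacyl-tRNA, its exchange complex eEF1B, and eEF2, which moves the ribosome along. In the lung these steps supply proteins such as surfactant proteins and the extracellular matrix, and phosphorylation of eIF2α is a well-known branch point of the stress response.

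Library totals ran from 1607111 to 4540288 counts, and a count of 3, taken as the lowest reliable level, corresponded to 0.656 to 1.84 CPM, the unit that scales a count by the library total. All values below are CPM after TMM scaling, a correction for composition, unless a log2 scale is named. Lung markers were detected in every library, with 5 alveolar type 2 genes summing to 12072 to 22656 CPM in normoxia and 3094 to 6684 CPM in hyperoxia. Several cell type lists moved with oxygen. Lower levels past the threshold were found for 4 of 5 alveolar type 2, 2 of 3 club cell, 3 of 5 capillary, 5 of 5 B cell, 2 of 2 tested T and NK cell, 4 of 6 cardiac muscle, 2 of 4 monocyte and neutrophil, 2 of 4 alveolar macrophage, 1 of 4 alveolar type 1, 1 of 3 ciliated and 1 of 4 tested erythroid markers. Higher levels were found for 1 of 4 tested fibroblast, 1 of 3 smooth muscle, 1 of 4 alveolar macrophage and 1 of 5 proliferation markers. No marker list was at 0 in all libraries. The part of this shift in the results on translation factors was not tested, and in whole tissue fewer cells of a type and less RNA per cell cannot be told apart. The library labelled Hyperoxia 1 stood apart, with a mean correlation of 0.779 with the other libraries, and it held the highest or lowest hyperoxic value for 82.5% of the tested factors against 68.4% of all genes tested. The labels list separate samples without tying each to its own mouse, so the p-values measure the spread between these samples.

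The summed level of translation factor transcripts was higher in hyperoxia. Summed over all 65 genes they made up 12525 to 13691 CPM in the 7 normoxic libraries, with a median of 12858, and 17472 to 21471 CPM in the 6 hyperoxic libraries, with a median of 18500. The groups did not overlap, and the ratio of the means was 0.54 on the log2 scale, or 0.47 with scaling by library size only. By edgeR, 21 of the 63 tested factors were higher at an adjusted p under 0.05 (33.3%), 1 was lower and 41 did not pass. Of all genes tested, 22.6% passed, 11.8% as higher and 10.8% as lower. The log2 fold change was above 0 for 51 of 63 factors, against 47.8% of all genes, and its median was 0.40 against -0.03. No called factor and 14 of the 41 uncalled ones changed sign in at least 1 of 23 other fits. Every hyperoxic library exceeded every normoxic one for 17 factors and none showed the opposite, a share of 27.0%, where 10.8% of all genes had groups that did not overlap, 5.60% with hyperoxia higher and 5.23% with it lower. Without Hyperoxia 1 the test found 28 factors higher and 3 lower, where 15.2% and 13.3% of all genes passed, and all 22 of the original factors remained among these 31. The 9 added were Eif2d, Eif3j1, Eif3l, Eif4a1, Eif4enif1, Eif4h and Eif6 as higher and Eif2ak3 and Eef2k as lower.

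**Figure D1:**
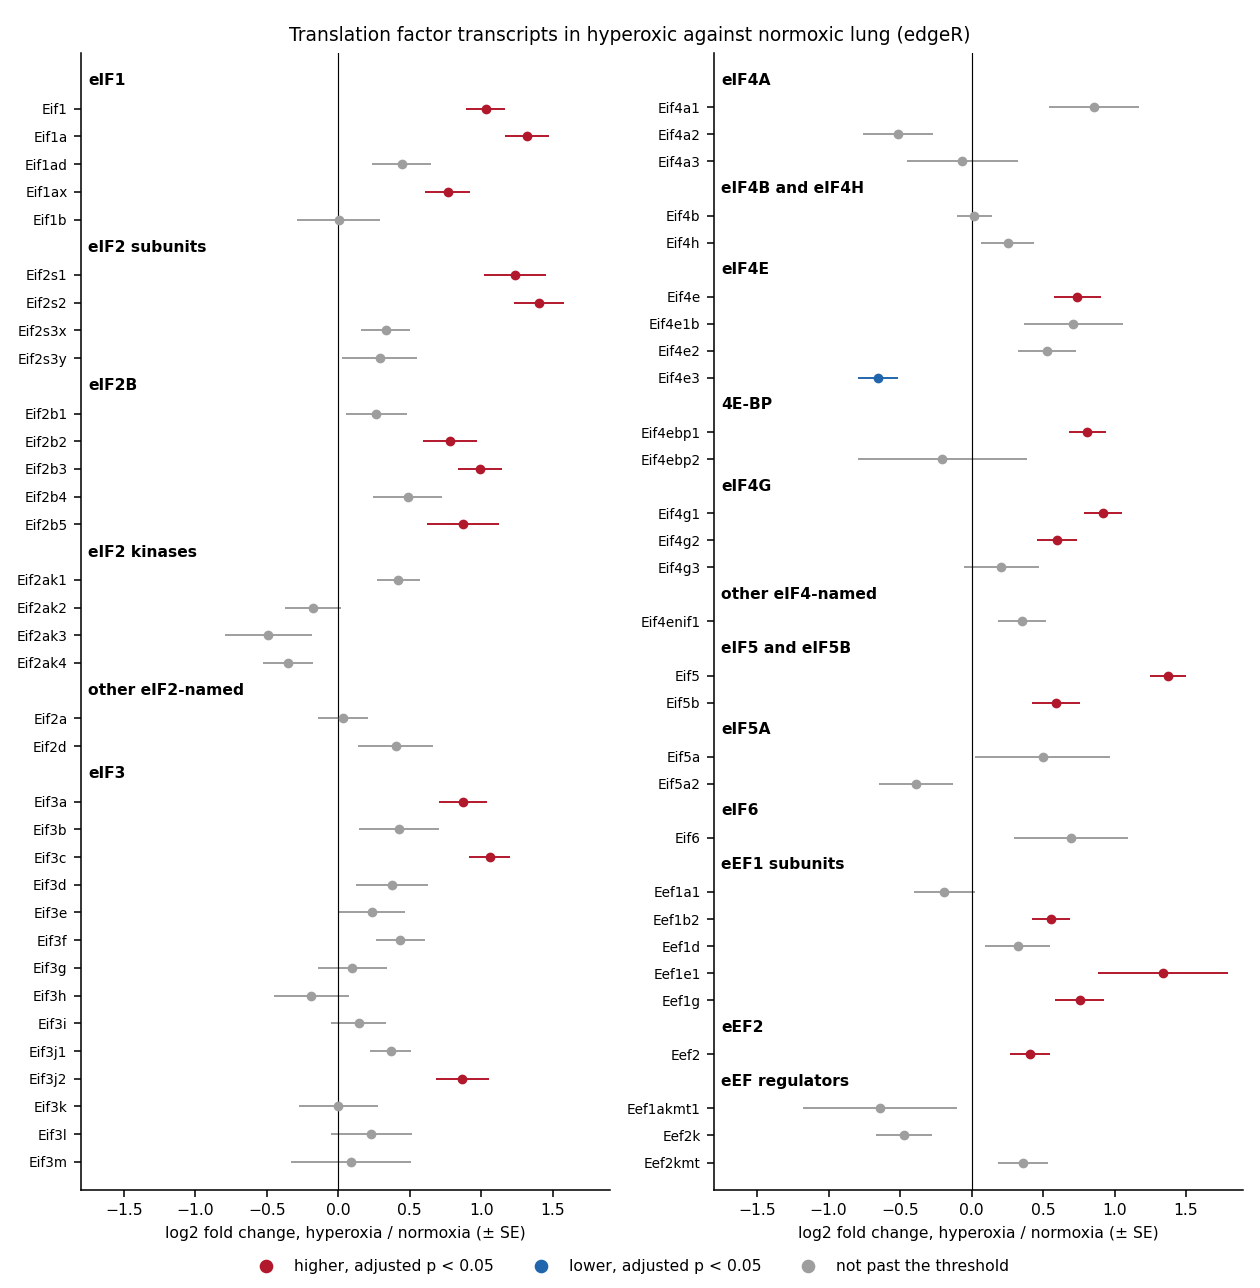
Log2 fold change of each of the 63 tested translation factors in hyperoxia (n = 6) relative to normoxia (n = 7), with its SE from edgeR, grouped by factor class. Red points are higher and the blue point lower at an adjusted p under 0.05, and 51 of 63 points lie to the right of 0.

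The factors that passed were spread over most classes, where 22.6% of all genes tested passed. They were 3 of 5 eIF1, 2 of 4 eIF2 subunit, 3 of 5 eIF2B, 3 of 14 eIF3 and 2 of 4 eIF4E genes. The eIF3 count, 21.4%, is near the share of all genes. Further ones were 2 of 3 eIF4G, both eIF5 and eIF5B, 1 of 2 tested 4E-BP, 3 of 5 tested eEF1 subunit genes, and eEF2. The eEF1 subunit class was taken by symbol and holds Eef1e1, whose product belongs to the multi-tRNA synthetase complex. No gene of the eIF2 kinases, eIF4A, eIF4B and eIF4H, eIF5A, eIF6 or eEF regulator classes passed. Class sums in CPM were compared without a test, and the ratio of hyperoxic to normoxic means was 1.28 on the log2 scale for eIF2 subunits, 1.00 for eIF1, 0.98 for eIF5 with eIF5B, 0.73 for eIF2B, 0.62 for eIF3 and 0.58 for eIF4G. In these 6 classes the lowest hyperoxic sum lay above the highest normoxic sum. The sums of the other classes overlapped, with ratios of 0.68 for eIF6, 0.62 for 4E-BP, 0.46 for eIF5A, 0.41 for eEF2, 0.32 for eIF4E, 0.11 for eEF1 subunits and -0.22 for eIF4A among them. Some of these rested on single libraries, as eIF6 was 0.43 and eIF5A 0.24 without Hyperoxia 2, eEF1 subunits 0.069 without Hyperoxia 3, and eIF4A -0.34 without Hyperoxia 5. Without Hyperoxia 1, eIF4E was 0.17, eIF5A 0.69 and eIF4A -0.085.

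The promoters of the factors were read for short motifs, and the windows below show the matches among those that rose. RefSeq (GRCm38.p6) gave promoters of 300 bases, 250 before and 50 after the start, for 50 of the 65 factors, among them 15 of the 21 that rose. The NRF1 motif, which is GCGC, any 2 bases and GCGC again, was searched on both strands as the core of sites of this regulator of genes for mitochondrial and housekeeping functions. It was in 7 of these 15 and in 2 of the 35 others, against 7.00% of all 27025 genes with a promoter. It is shown in capitals for the 7 factors that rose, each on the strand of its gene.
Eif1, chr11:100319731-100319760, + strand: catgcccactGCGCAAGCGCgcaggcggac
Eif2s1, chr12:78862014-78862043, + strand: ttttctgtcgGCGCCTGCGCagtgagaggt
Eif2s2, chr2:154892857-154892886, - strand: ggcgagctctGCGCAGGCGCacttccaacg
Eif3a, chr19:60790742-60790771, - strand: agacgccagcGCGCCTGCGCgcggagaaag
Eif4e, chr3:138527158-138527187, + strand: ctgcagtcttGCGCAGGCGCcgctagggcc
Eif4g1, chr16:20672701-20672730, + strand: tgcttccccgGCGCCAGCGCagctccgccc
Eef1e1, chr13:38659093-38659122, - strand: cgcccctttcGCGCAGGCGCgcttgccgtc
The other factors with this motif were Eif3k and Eif5a, which did not pass.

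The palindromic E-box CACGTG, the core of sites for MYC and related factors, was in 4 of the 15 promoters of factors that rose and in 8 of the 35 others, against 8.09% of all genes. It is shown in capitals for the cap-binding protein and the scaffold of eIF4F, which carry it more than once, and for eEF2.
Eif4e, chr3:138527030-138527055, + strand: cgccagcgacCACGTGatcacttttt
Eif4e, chr3:138527194-138527219, + strand: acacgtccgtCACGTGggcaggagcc
Eif4g1, chr16:20672663-20672688, + strand: cagtgggtgtCACGTGatggggcgga
Eif4g1, chr16:20672732-20672757, + strand: ctgcgccggtCACGTGgggcgctggc
Eef2, chr10:81176578-81176603, + strand: ccggcgccgtCACGTGacgcacccaa
The fourth gene that rose and held it was Eif3a. TGATGNAA, the core of the elements bound by ATF4 with its partners, was in 0 of 15 and 2 of 35 promoters (4.51% of all genes). A start of C followed by at least 4 pyrimidines, as in mRNAs with a 5′ terminal oligopyrimidine tract, was in 0 of 15 and 2 of 35 (3.01% of all genes), and in 14 of 66 ribosomal protein promoters. These matches are letters in annotated windows, and binding was not measured.

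Within the eIF1 class, which keeps the scanning ribosome open until a start codon is found, 3 of 5 genes rose. Eif1 (chromosome 11, 100319885 to 100322096, + strand) ran from 1099 to 1455 CPM in normoxia with a median of 1226, and from 1858 to 2909 in hyperoxia with a median of 2657. The groups did not overlap, and the log2 fold change was 1.03 ± 0.14 (SE, edgeR adjusted p = 8.28e-05). Eif1a, 1 of the genes for eIF1A, ran from 57.9 to 74.4 CPM (median 70.8) in normoxia and from 133 to 250 CPM (median 152) in hyperoxia. Its log2 fold change was 1.32 ± 0.15 (edgeR adjusted p = 2.16e-05). Its X-linked paralog Eif1ax ran from 92.6 to 134 CPM and from 149 to 239 CPM, again without overlap, with a log2 fold change of 0.76 ± 0.15 (edgeR adjusted p = 0.00217). The paralog of Eif1, Eif1b, had overlapping groups with medians of 26.6 and 32.0 CPM and a log2 fold change of 0.00 ± 0.29. The nuclear relative Eif1ad had a log2 fold change of 0.44 ± 0.20 (edgeR adjusted p = 0.135).

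The eIF2 subunit genes were unevenly changed. Eif2s2, for eIF2β (chromosome 2, 154871410 to 154892935, - strand), had the largest fold change in the test over all 13 libraries, but not without Hyperoxia 1. It ran from 460 to 615 CPM in normoxia (median 548) and from 1053 to 2306 CPM in hyperoxia (median 1247), a log2 fold change of 1.40 ± 0.17 (edgeR adjusted p = 4.3e-05). The value of 2306 belonged to Hyperoxia 1, and without it the log2 fold change was 1.22, below that of Eef1e1, Eif1a, Eif2s1 and Eif5. Eif2s1, for eIF2α, the subunit that the stress kinases phosphorylate (chromosome 12, 78861819 to 78887010, + strand), ran from 50.04 to 66.0 CPM (median 56.5) and from 66.5 to 228 CPM (median 132). The groups were apart only by the narrow gap below Hyperoxia 1, its lowest hyperoxic library, and the log2 fold change was 1.24 ± 0.22 (edgeR adjusted p = 0.00072). Neither gene for eIF2γ passed. Eif2s3x ran from 16.5 to 27.9 CPM and from 23.1 to 38.8 CPM (log2 fold change 0.33 ± 0.17, edgeR adjusted p = 0.183), and Eif2s3y gave 0.29 ± 0.26 (edgeR adjusted p = 0.471), or 0.041 without Hyperoxia 3 and 0.48 without Hyperoxia 1. The alternative initiation factors Eif2a and Eif2d gave 0.03 ± 0.17 and 0.40 ± 0.26 and did not pass.

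eIF2B is the exchange factor of 5 subunits that reloads eIF2 with GTP, and its genes Eif2b2, Eif2b3 and Eif2b5 rose. Eif2b3, for the γ subunit, ran from 20.2 to 26.8 CPM in normoxia (median 23.1) and from 36.3 to 62.7 CPM in hyperoxia (median 44.6), with no overlap and a log2 fold change of 0.99 ± 0.15 (edgeR adjusted p = 2.56e-04). For Eif2b2, the β subunit, the ranges were 27.9 to 41.5 CPM (median 37.3) and 38.2 to 99.2 CPM (median 57.6), and they overlapped by the lowest hyperoxic library (log2 fold change 0.78 ± 0.19, edgeR adjusted p = 0.0071). The catalytic subunit gene Eif2b5 ran from 43.5 to 71.7 CPM (median 63.5) and from 68.4 to 231 CPM (median 88.9). Its log2 fold change of 0.87 ± 0.25 (edgeR adjusted p = 0.0199) rested in part on Hyperoxia 1, the library at 231 CPM, and was 0.53 (edgeR adjusted p = 0.0124) without it. Eif2b1 and Eif2b4 gave 0.26 ± 0.21 and 0.48 ± 0.24 and did not pass. Without Hyperoxia 3, Eif2b1 was at 0.065 and Eif2b4 passed at 0.66.

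No eIF2 kinase passed by edgeR over all libraries. Eif2ak1, for the heme-regulated kinase HRI, ran from 69.4 to 89.6 CPM and from 94.2 to 169 CPM without overlap, with a log2 fold change of 0.42 ± 0.15 (edgeR adjusted p = 0.0506). It passed by DESeq2 (adjusted p = 0.0352), with the set of library names, B to M or O to S, as a term (edgeR adjusted p = 0.0293), and without Hyperoxia 3 or Hyperoxia 4. The genes for PKR, PERK and GCN2, activated by double-stranded RNA, unfolded proteins and amino acid shortage, had log2 fold changes of -0.18 ± 0.20 (Eif2ak2), -0.49 ± 0.30 (Eif2ak3) and -0.35 ± 0.18 (Eif2ak4), with edgeR adjusted p of 0.566, 0.274 and 0.169. Without Hyperoxia 1, Eif2ak3 passed at -0.75 (edgeR adjusted p = 0.042), and it was at -0.31 without Hyperoxia 2. Eif2ak2 was at 0.31 in the set B to M and passed at -0.85 in the set O to S (edgeR adjusted p = 0.0116).

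**Figure D2:**
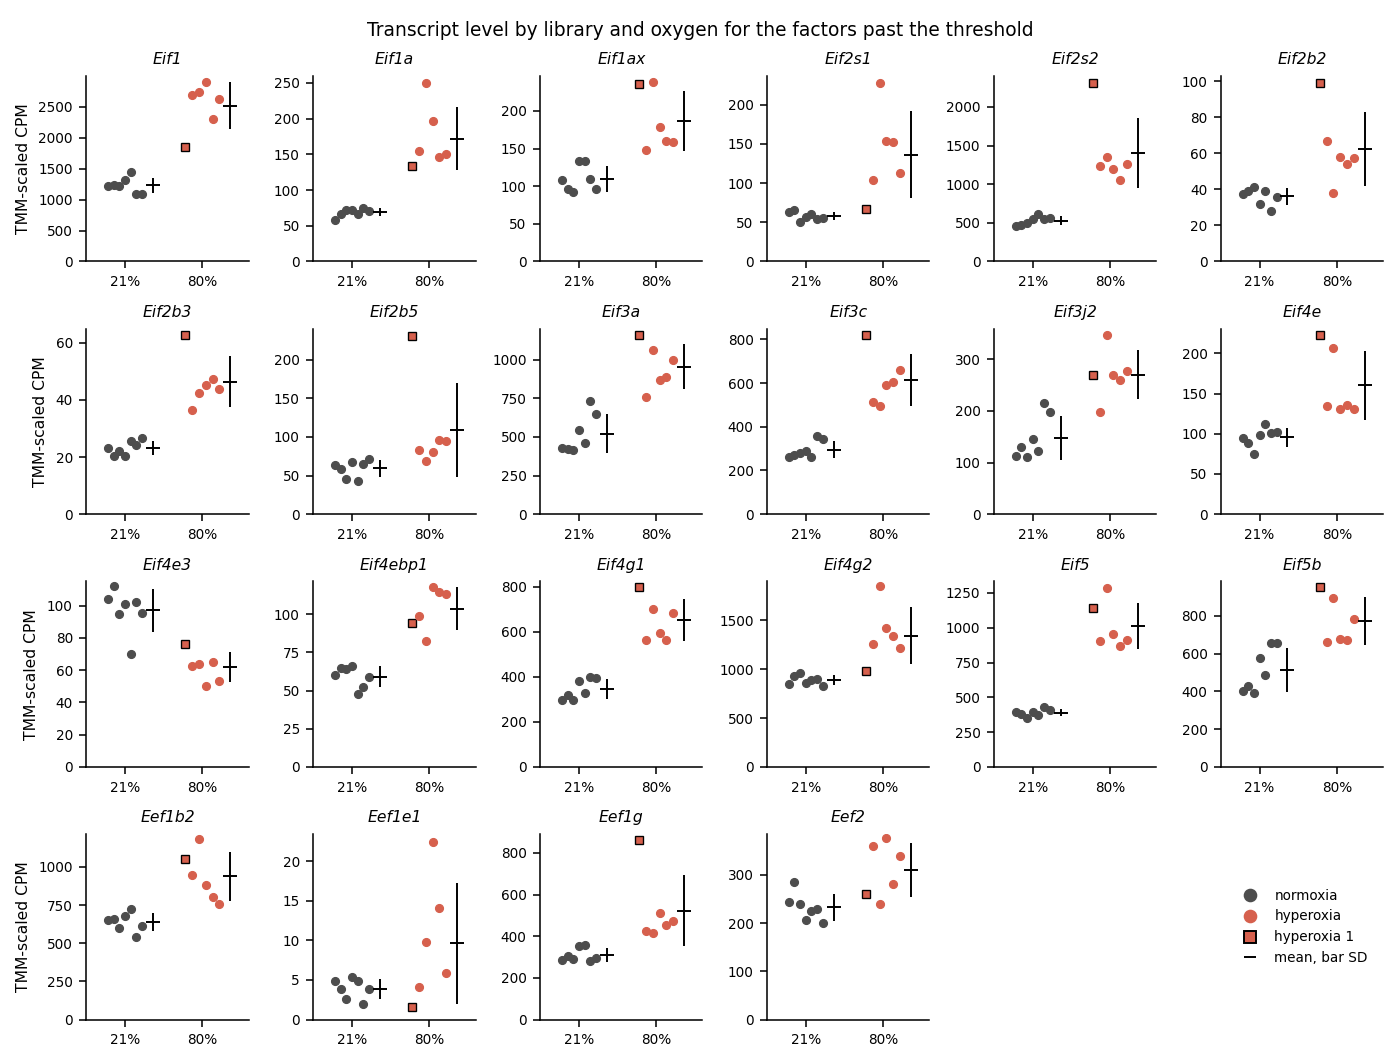
CPM of the 22 factors past the threshold in each library, by percent oxygen, with the mean and SD of each group. Each axis starts at 0, and the square marks Hyperoxia 1, which is highest of its group for Eif2s2, Eif2b5 and Eef1g and lowest for Eif1, Eif1a and Eif2s1.

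Of the 14 genes of eIF3, the large scaffold between the mRNA, eIF4G and the small subunit, 3 rose and 11 did not pass. The share that passed, 21.4%, was near the 22.6% of all genes tested. Eif3a, for the largest subunit, ran from 416 to 732 CPM (median 458) in normoxia and from 761 to 1162 CPM (median 942) in hyperoxia (log2 fold change 0.87 ± 0.17, edgeR adjusted p = 0.00155). Eif3c, for a core subunit that contacts eIF1 and eIF5, ran from 260 to 359 CPM (median 282) and from 493.01 to 820 CPM (median 598), a log2 fold change of 1.06 ± 0.15 (edgeR adjusted p = 1.06e-04). Neither pair of groups overlapped. The third, Eif3j2, ran from 110 to 216 CPM and from 198 to 347 CPM (log2 fold change 0.87 ± 0.18, edgeR adjusted p = 0.00305), and its paralog Eif3j1 did not pass (0.37 ± 0.14, edgeR adjusted p = 0.0799, DESeq2 adjusted p = 0.0392). As 88.5% of the 31-base words at the 3′ end of Eif3j2 also occur in Eif3j1, the division of reads between them is uncertain. The other 10 genes ranged from -0.19 for Eif3h to 0.43 for Eif3f, which was 0.23 without Hyperoxia 1. Of these, Eif3g, Eif3h, Eif3k, Eif3l and Eif3m changed sign in other fits. For Eif3h, Eif3e, Eif3l and Eif3m, Hyperoxia 1 was the lowest library, with 3.75 CPM for Eif3m where the normoxic minimum was 42.2.

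In eIF4F, the scaffold gene Eif4g1 and the cap-binding gene Eif4e rose, and the helicase genes did not pass. The related gene Eif4g2, whose product is outside eIF4F as defined above, also rose. Eif4g1, for the main scaffold, ran from 296 to 398 CPM (median 327) in normoxia and from 563 to 798 CPM (median 638) in hyperoxia, a log2 fold change of 0.92 ± 0.13 (edgeR adjusted p = 1.83e-04). Eif4g2, a scaffold that lacks the eIF4E-binding site, ran from 825 to 957 CPM (median 888) and from 976 to 1846 CPM (median 1301), a log2 fold change of 0.60 ± 0.14 (edgeR adjusted p = 0.00681). Both were free of overlap between groups, and Eif4g3 was not (0.21 ± 0.26, edgeR adjusted p = 0.615). Eif4e, the cap-binding gene whose promoter windows are given above, ran from 74.2 to 112 CPM (median 98.2) and from 131 to 223 CPM (median 135), with a log2 fold change of 0.74 ± 0.16 (edgeR adjusted p = 0.00375).

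Eif4e3, for an atypical cap-binding relative of eIF4E, was the 1 factor called lower over all libraries, and other settings added Eef2k, Eif4a2, Eif2ak2 or Eif2ak3. It ran from 69.8 to 112 CPM in normoxia (median 101) and from 50.1 to 76.1 CPM in hyperoxia (median 63.3). Only Normoxia 5, at 69.8 CPM, lay within the hyperoxic range, and the log2 fold change was -0.66 ± 0.14 (edgeR adjusted p = 0.00331). In the set B to M it was -0.46 and did not pass (edgeR adjusted p = 0.211), and in the set O to S it was -0.83 (edgeR adjusted p = 0.00969). The gene overlaps the gene models Gm20696 and Gm44104 on its own strand, so reads of these cannot be told apart where they overlap. Within 300 bases of the 3′ end of Eif4e3, 0% of the 31-base words were shared with other genes. Eif4e2, for the cap-binding protein linked to repression, gave 0.53 ± 0.20 (edgeR adjusted p = 0.074), or 0.32 without Hyperoxia 1, and the scarce Eif4e1b gave 0.71 ± 0.35 (edgeR adjusted p = 0.158), or 0.30 without Hyperoxia 1.

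Eif4a1, for the main eIF4A helicase, ran from 104 to 126 CPM in normoxia (median 110). In hyperoxia 5 libraries lay above every normoxic library and Hyperoxia 1 was far below, at 31.6 CPM, with a median of 226 and a maximum of 275. With this library the log2 fold change of 0.86 ± 0.31 did not pass by edgeR (adjusted p = 0.0613) and passed by DESeq2 (adjusted p = 0.0294), and without it Eif4a1 was higher by 1.10 ± 0.12 (edgeR adjusted p = 5.96e-06). Eif4a2 ran from 503 to 1062 CPM and from 330 to 808 CPM (-0.51 ± 0.24, edgeR adjusted p = 0.146). Its normoxic values were 503 to 671 CPM in the libraries named B to M and 1046 and 1062 CPM in those named O to S. With the set of names as a term Eif4a2 passed as lower (-0.64 ± 0.17, edgeR adjusted p = 0.0128), as it did within O to S (-0.85, edgeR adjusted p = 0.0332) and without Hyperoxia 5. Eif4a3, of the exon junction complex, gave -0.07 ± 0.39. The helicase cofactors Eif4b and Eif4h gave 0.02 ± 0.12 and 0.25 ± 0.18, and Eif4enif1, for a protein that carries eIF4E to the nucleus, gave 0.35 ± 0.17 (edgeR adjusted p = 0.148). Without Hyperoxia 1, Eif4h passed at 0.40 (edgeR adjusted p = 0.0392) and Eif4enif1 at 0.47 (edgeR adjusted p = 0.0151), while Eif4h was at 0.14 without Hyperoxia 3.

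The 4E-BPs bind eIF4E when mTORC1 is inactive. Eif4ebp1 (chromosome 8, 27260329 to 27276674, + strand) ran from 47.8 to 65.9 CPM in normoxia (median 60.1) and from 82.7 to 118 CPM in hyperoxia (median 106). The groups did not overlap, and the log2 fold change was 0.81 ± 0.13 (edgeR adjusted p = 3.69e-04). Eif4ebp2 was widely spread, from 3.70 to 20.5 CPM and from 0 to 20.1 CPM (-0.20 ± 0.59, edgeR adjusted p = 0.842). Eif4ebp3 was left out by the filter on low counts, with 0 to 13.5 CPM in normoxia and 0 to 3.78 CPM in hyperoxia. As 100% of the 31-base words at its 3′ end also occur in the gene model AC115631.1, these counts are uncertain.

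Both factors that act at start codon recognition and subunit joining rose. Eif5, for the protein that activates the GTPase of eIF2 (chromosome 12, 111538016 to 111546752, + strand), had the smallest adjusted p of the factors over all libraries. It ran from 355 to 430 CPM in normoxia (median 395) and from 872 to 1286 CPM in hyperoxia (median 932), a log2 fold change of 1.37 ± 0.13 (edgeR adjusted p = 2.83e-06). Every hyperoxic library held more than the highest normoxic one. Eif5b, for the GTPase of subunit joining, ran from 389 to 658 CPM (median 489) and from 660 to 954 CPM (median 729), so that the groups were separated by a narrow gap (log2 fold change 0.59 ± 0.17, edgeR adjusted p = 0.0177). Eif5a, for the hypusine-bearing factor that relieves stalled ribosomes, ran from 34.6 to 264 CPM and from 21.98 to 367 CPM (0.50 ± 0.47, edgeR adjusted p = 0.494), and Eif5a2 gave -0.39 ± 0.26. Without Hyperoxia 1 these were 0.75 and -0.25, and Eif5a was 0.29 without Hyperoxia 2. Eif6, for the factor that keeps the ribosomal subunits apart, gave 0.69 ± 0.40 (edgeR adjusted p = 0.235) and 0.92 (edgeR adjusted p = 0.0313) without Hyperoxia 1.

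Among the elongation factors 2 of the 3 exchange complex genes rose and eEF1A did not pass. Eef1a1, the most counted of the 65 genes in normoxia, ran from 1859 to 2751 CPM (median 2383) and from 860 to 2690 CPM in hyperoxia (median 2084). Its groups overlapped and its log2 fold change was -0.19 ± 0.21 (edgeR adjusted p = 0.562), or -0.017 without Hyperoxia 1, the library at 860 CPM. The muscle and neuron form Eef1a2 had at most 1 count in any library and was not tested. Eef1b2, for a nucleotide exchange subunit, ran from 539 to 724 CPM (median 651) and from 759 to 1182 CPM (median 915), with a log2 fold change of 0.56 ± 0.13 (edgeR adjusted p = 0.00745). Eef1g, for the scaffold subunit of the exchange complex, ran from 280 to 357 CPM (median 294) and from 416 to 860 CPM (median 463), a log2 fold change of 0.76 ± 0.17 (edgeR adjusted p = 0.00459). Both had groups without overlap. The third exchange subunit gene, Eef1d, gave 0.32 ± 0.23 (edgeR adjusted p = 0.341), with Hyperoxia 1 at 569 CPM and the other hyperoxic libraries between 178 and 237 CPM, and it was at -0.0091 without this library.

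Eef1e1, whose product belongs to the multi-tRNA synthetase complex, was near the floor, at 1.95 to 5.38 CPM in normoxia (median 3.87) and 1.61 to 22.3 CPM in hyperoxia (median 7.82). Its log2 fold change of 1.34 ± 0.46 just passed (edgeR adjusted p = 0.0448), and the call was lost in 9 of the 13 fits that left out a single library. The translocase gene Eef2 ran from 201 to 286 CPM (median 229) and from 240 to 375 CPM (median 310), a log2 fold change of 0.41 ± 0.14 (edgeR adjusted p = 0.0459) that was also lost in 9 of 13 such fits. Its inhibitory kinase gene Eef2k ran from 22.7 to 33.2 CPM and from 13.2 to 27.9 CPM (-0.48 ± 0.20, edgeR adjusted p = 0.0935), and passed at -0.57 (edgeR adjusted p = 0.0282) without Hyperoxia 1 and at -0.54 by limma-voom (adjusted p = 0.0455). The lysine methyltransferase genes Eef2kmt and Eef1akmt1 gave 0.36 ± 0.17 and -0.64 ± 0.54 and did not pass. Eef2kmt was at 0.16 without Hyperoxia 1, and Eef1akmt1 at -0.40 without Hyperoxia 3.

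**Figure D3:**
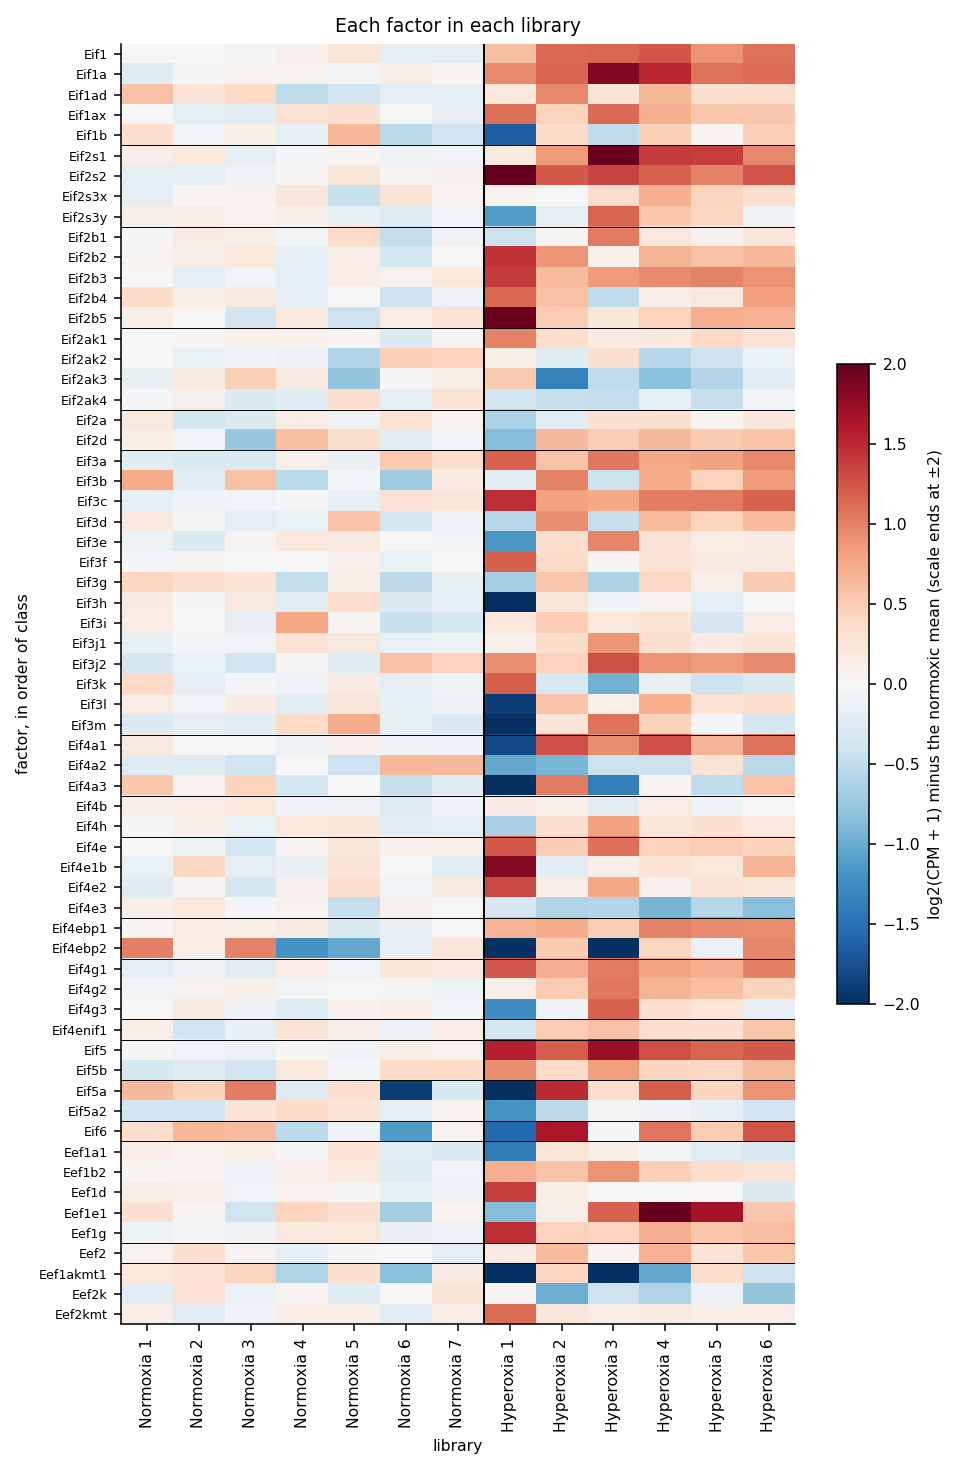
Each tested factor (rows, ordered by class) in each of the 13 libraries (columns), as log2(CPM + 1) minus the mean of the 7 normoxic libraries, with the colour scale ending at 2 in both directions. The rows of Eif1, Eif1a, Eif2s2, Eif3c, Eif4g1 and Eif5 are red in all 6 hyperoxic columns, and Hyperoxia 1 departs from the other hyperoxic columns in many rows.

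Ratios between 2 genes of the same library do not depend on how libraries are scaled, and they ask whether paralogs or partners moved apart. Of 17 ratios computed, 8 differed between the groups at an adjusted p under 0.05 (two-sided exact permutation test, smallest possible p 0.00117). Eif1 rose relative to Eif1b by 1.16 on the log2 scale (exact permutation, adjusted p = 0.0198), or by 0.93 without Hyperoxia 1, and all 6 hyperoxic libraries exceeded the normoxic maximum. The helicase gene Eif4a1 rose relative to Eif4a3 by 1.00 (exact permutation, adjusted p = 0.0198), and 5 of 6 did so. These were the 2 ratios that passed in all 13 fits that left out a single library. Their size was uneven between the 2 sets of library names, at 1.71 within B to M and 0.43 within O to S for Eif1 against Eif1b, and 1.12 and 0.71 for Eif4a1 against Eif4a3.

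The other ratios that passed lost the threshold in 3 to 10 of these 13 fits. Eif4g1 against Eif4g3 differed by 0.87 and Eif1a against Eif1ax by 0.53 (exact permutation, adjusted p = 0.0283 for each). The former was 0.55 without Hyperoxia 1, whose ratio was 2.12 while the other hyperoxic libraries reached at most 0.82. Eif2s1 rose relative to the eIF2γ gene Eif2s3x by 0.81 (exact permutation, adjusted p = 0.0283), and the translocase gene Eef2 relative to its kinase gene Eef2k by 0.89 (exact permutation, adjusted p = 0.0264). Eef1a1 fell by 0.66 relative to Eef2 (exact permutation, adjusted p = 0.0283), and 5 of 6 hyperoxic libraries were under the normoxic minimum. Eif4e rose relative to Eif4e2 by 0.24 (exact permutation, adjusted p = 0.0421).

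Eif4e and its inhibitor gene Eif4ebp1 each rose over all libraries, and their ratio differed by -0.09 (exact permutation, adjusted p = 0.703), with SDs of 0.33 in normoxia and 0.53 in hyperoxia. The ratio moved in opposite directions in the 2 sets of library names, by 0.38 within B to M and -0.67 within O to S. Eif4a1 against Eif4a2 differed by 1.09 without passing (exact permutation, adjusted p = 0.0773), and by 1.47 (exact permutation, adjusted p = 0.0184) without Hyperoxia 1, and it was 0.64 in the set B to M and 1.99 in the set O to S. Eif3j1 against Eif3j2 differed by -0.55 (exact permutation, adjusted p = 0.0506), at -0.70 in the set B to M and -0.0039 in the set O to S, and Eif4ebp1 against Eif4ebp2 by 1.78 (exact permutation, adjusted p = 0.116). The latter was 0.97 without Hyperoxia 1, which had 0 counts of Eif4ebp2, and it was 3.01 in the set B to M and 0.65 in the set O to S.

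**Figure D4:**
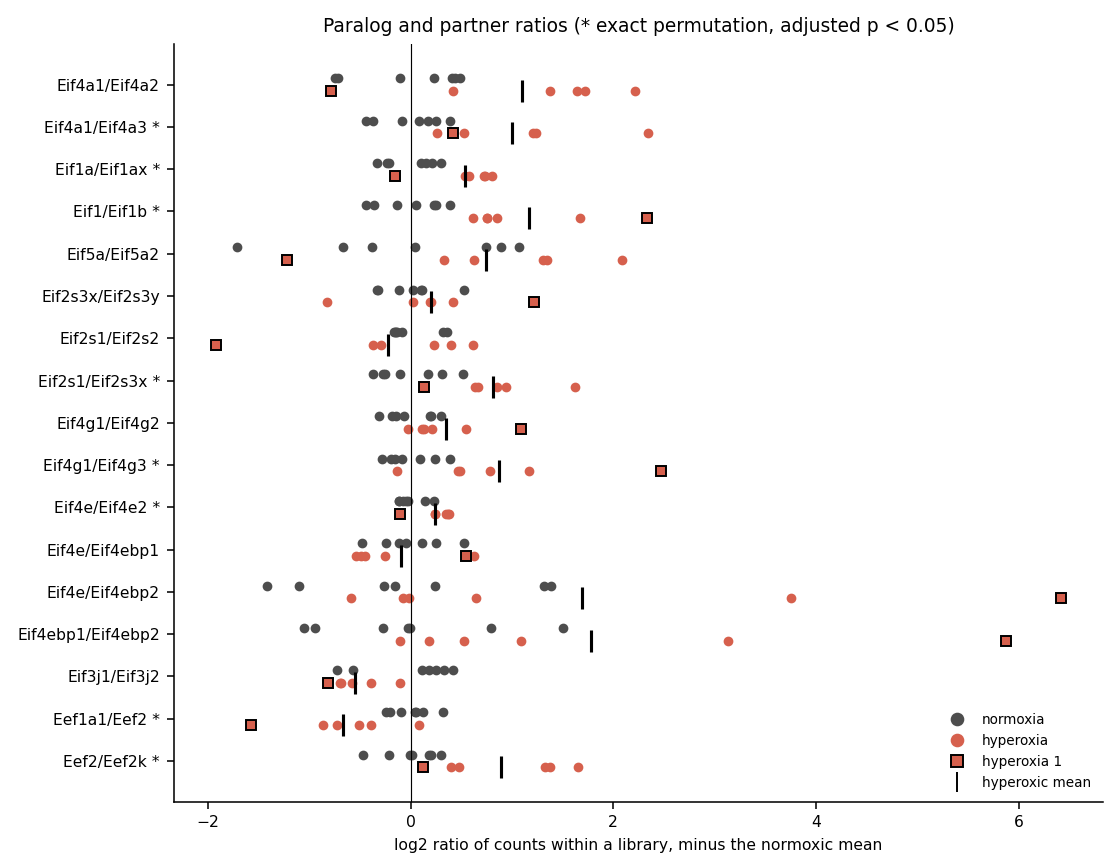
Log2 ratio of the counts (plus 0.5) of 2 factors in each library, minus the mean of the 7 normoxic libraries, for 17 pairs. Grey points are normoxic and red points hyperoxic libraries, the square is Hyperoxia 1, the bar is the hyperoxic mean, and an asterisk marks the 8 pairs past the threshold, of which Eif1/Eif1b had no overlap between the groups.

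The library names run from B to M and from O to S, and these 2 sets, whose meaning the labels do not give, were compared separately. The first holds 5 normoxic and 3 hyperoxic libraries and the second 2 and 3, so they share no library. Of the 63 factors, 53 had the same sign in both sets. All 22 that passed over all libraries did too, but they were chosen from these same libraries, so this gives no separate evidence. Of all genes tested in both, 7874 of 12528 had the same sign. In the first set 14 factors passed, where 8.80% of all genes passed, and in the second 29 passed, where the share was 21.3%. The 10 that passed in both were Eif1, Eif1a, Eif1ax, Eif2s1, Eif2s2, Eif2b3, Eif3c, Eif4g1, Eif5 and Eef1b2. Eif5 was higher by 1.61 in the first set and by 1.11 in the second, and Eif2s1 by 1.22 and 1.34 on the log2 scale. Other called factors were uneven, as for Eif5b (0.93 and 0.10), Eif3a (1.19 and 0.40), Eif3j2 (1.18 and 0.37) and Eif4e (1.07 and 0.37). So were Eif2b5 (1.26 and 0.40) and Eef1e1 (0.35 and 2.25). Eif5a (0.03 and 1.79), Eif1b (-0.56 and 0.82) and Eif6 (0.30 and 1.43) did not pass over all libraries but passed within O to S. The differences between the sets were not tested.

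**Figure D5:**
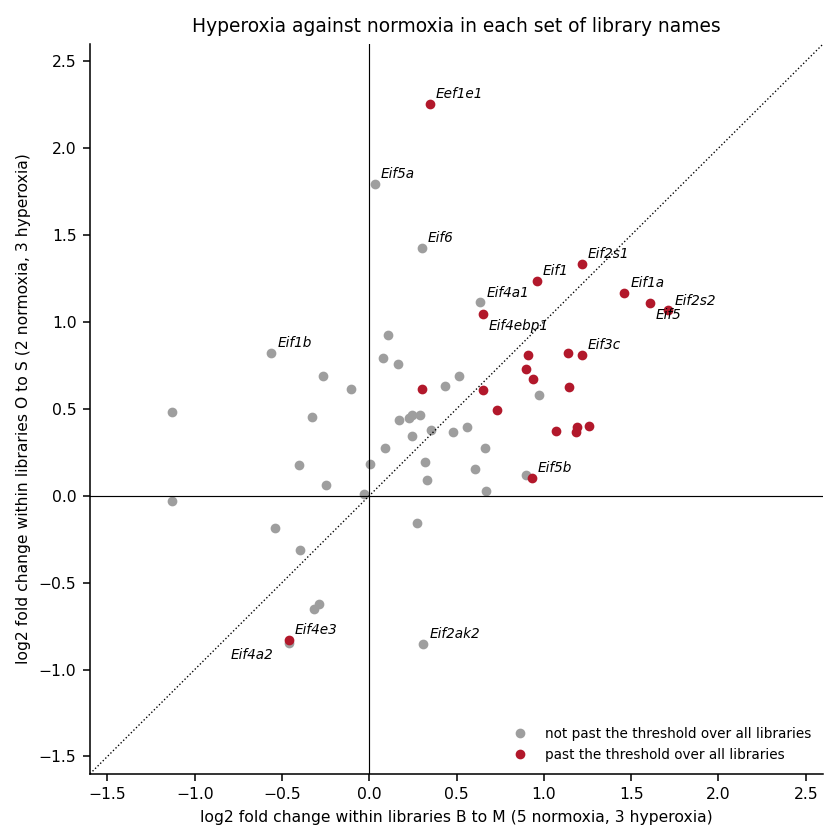
Log2 fold change of each of the 63 tested factors in hyperoxia relative to normoxia within the libraries named B to M (x axis, 5 normoxic and 3 hyperoxic) and O to S (y axis, 2 normoxic and 3 hyperoxic). Red points are the 22 factors past the threshold over all libraries, which include those of both axes. All 22 have the same sign on both axes, and the dotted line marks equal values.

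Other genes of the translation pathway were read from lists alongside the factors, and their counts stand against the 11.8% of all genes that were higher and the 10.8% that were lower. The eIF2 phosphatase list had 3 of 8 genes higher (37.5%), with the stress-induced phosphatase subunit Ppp1r15a at 1.20 ± 0.26 (edgeR adjusted p = 0.00388), its constitutive relative Ppp1r15b at 0.47 and the re-initiation factor Denr at 0.58. All 6 tested targets of the integrated stress response, the programme downstream of eIF2α phosphorylation, were higher, with a median log2 fold change of 2.12. Atf4, its central transcription factor, ran from 57.6 to 85.3 CPM in normoxia and from 214 to 317 CPM in hyperoxia (log2 fold change 1.91 ± 0.15, edgeR adjusted p = 4.26e-07). Ddit3, Trib3, Asns, Sesn2 and Atf3 were higher by 1.40, 2.75, 1.82, 2.49 and 2.34. In normoxia Trib3 (1.01 to 4.85 CPM) and Sesn2 (0 to 4.16 CPM) mostly lay below the filter level of 3.36 CPM. These 2 entered the test mainly through hyperoxic libraries, and Chac1 and Atf5 did not enter. The count of 6 and the median therefore depend in part on the filter. Asns in Hyperoxia 1 was at 1.07 CPM, below the normoxic minimum of 2.94 CPM.

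Termination and recycling had 3 of 5 tested genes higher, where 11.8% of all genes were. The release factors Etf1 and Gspt1 gave log2 fold changes of 1.22 ± 0.14 and 0.88 ± 0.17 (edgeR adjusted p = 1.92e-05 and 0.0019), and the recycling ATPase Abce1 gave 1.02 ± 0.22 (edgeR adjusted p = 0.00395). Of 5 poly(A)-binding genes, Pabpc1 and Pabpc4 rose by 0.66 and 1.13, and Paip2, for an inhibitor of poly(A)-binding protein, fell by 0.79 (edgeR adjusted p = 2.41e-04). The largest change of this list was in Paip1, at -1.47 ± 0.55, which did not pass (edgeR adjusted p = 0.0678). Paip1 passed in 2 of the 13 fits that left out a single library. Hyperoxia 3 was far above the other hyperoxic libraries for Pabpc1 (3131 CPM, others 1318 to 1849) and Pabpc4 (504 CPM, others 85.2 to 222). Without it Pabpc1 was at 0.46 (edgeR adjusted p = 0.0650) and Pabpc4 at 0.70 (edgeR adjusted p = 0.0251), and Pabpc1 kept its call in 7 of the 13 fits that left out a single library. The list of mTORC1 and kinases of eIF4E and S6 had 1 of 9 tested genes higher, the mRNA-binding Larp1 at 0.60, and 1 lower, Pdcd4, for an inhibitor of eIF4A, at -0.94 ± 0.16 (edgeR adjusted p = 4.29e-04), which is 22.2% of the list and near the 22.6% of all genes. Both tested genes of hypusine synthesis, the modification of eIF5A, did not pass. Of 4 tested genes of diphthamide synthesis, the modification of eEF2, Dph3 and Dph5 rose by 0.74 and 1.12.

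Of the 84 ribosomal proteins tested, taken by symbol, 13 were higher (15.5%, against 11.8% of all genes) and 1, Rps21, was lower, with a median log2 fold change of 0.11 against 0.40 for the factors. The 3 with the smallest adjusted p were Rpl12 (1.15 ± 0.16), Rpl7l1 (0.97 ± 0.15) and Rps27l (1.69 ± 0.27), and the last 2 encode relatives of ribosomal proteins. The number higher ran from 7 to 18 when single libraries were left out, at 7 or 8 without Normoxia 1, 2, 3, 5, 6 or 7 or Hyperoxia 4 or 5, and it was 7 in the set B to M and 23 in the set O to S. Rps21 kept its call in 5 of these 13 fits. The difference between factors and ribosomal proteins was not tested.

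Position and sequence sharing bear on how the counts were assigned. In the GENCODE vM21 annotation of the same build, 10 of the 22 factors past the threshold host small RNA genes on their own strand, 1 (Eif4e3) overlaps other gene models on its own strand, and 3 have a gene on the other strand, which matters only if reads were assigned without strand, a setting not given in the sources used here. The opposite partners were Ndufs1 for Eef1b2, at 49.1 and 46.6 CPM in normoxia and hyperoxia, Rev1 for Eif5b, at 14.3 and 18.5 CPM, and the agouti gene a for Eif2s2, at 0.0425 and 0 CPM, so each was far below its factor. More than 10% of the 31-base words within 300 bases of the 3′ end were shared with other genes for 5 of the 22, at 88.5% for Eif3j2, 39.2% for Eif2s2, 38.1% for Eef1b2, 28.6% for Eif1 and 24.8% for Eif4e. Apart from Eif3j1 as the partner of Eif3j2, the partners were mainly predicted gene models, and the values of these factors are uncertain by the reads so shared. Of all 65 factors, 16 were above 10%. The share was 71.9% for Eef1a1, 40.4% for Eif4a3 and 38.1% for Eif2s3x. Eif4a3 and Eif2s3x are denominators of ratios that passed, so the ratios are uncertain in the same way.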

How the data were processed

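Quant-seq 3′ mRNA libraries of mouse lung (13 samples, 7 normoxia, 6 hyperoxia, grouped by sample title) were analysed from the tables deposited by the authors. Per the paper's methods and the submitters' processing notes, reads were pseudoaligned with kallisto in BioJupies, with mm10 as the build and limma 3.54.2 for their own statistics. The authors deposited whole-number counts per gene symbol, with no filter on low counts and no molecular identifiers, and log10 values that equal log10(CPM + 1) of these counts. The annotation and the use of strand are not given in the sources used here. All columns were mapped to samples (0 left unmapped).

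Counts were tested with edgeR 4.0.16 (glmQLFit, glmQLFTest, R 4.3.3). Scaling was by TMM, and filterByExpr kept genes reaching 3.36 CPM in at least 6 libraries. Of the 63 factors kept, 59 reached this level in every library, and Eef1akmt1 reached it in fewer than 4 hyperoxic libraries. Benjamini-Hochberg adjustment was over all 12496 genes and the threshold was 0.05. SEs were derived from the fold change and the F statistic. Ratios used counts plus 0.5 and an exact permutation test, adjusted over 17 ratios. Limits on low counts (3 counts) cover counting error only. Total counts ran from 1607111 to 4540288.

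The members and lists were chosen with earlier results of these data known. Named genes were every factor past the threshold, the factor with the highest mean CPM in each class, and fixed members of the eIF2, eIF2B, kinase, eIF4F, 4E-BP, eIF5, eIF6 and eEF classes; of the other lists, every gene past the threshold, and the 3 ribosomal protein genes with the smallest adjusted p. Further genes named without passing or without a test, such as Eif3h, Eif3f, Eif4a3, Paip1 or Chac1, were chosen after their values were seen or as partners in a ratio.

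Alternatives were DESeq2 1.42.0, limma-voom and limma 3.58.1 on log2 values from the deposited log10 table, scaling by library size only, 2 other filters, the library name set as a term, the replicate number as a block, stricter thresholds, a ratio pseudocount of 2 and leaving out each library. Fits within each set of library names were added after seeing the data. No replicate pair of a group agreed within sampling noise. The tests were tried on simulated data. Sequences came from RefSeq promoters of GRCm38.p6 and gene positions from GENCODE vM21, to which all 65 symbols matched. Promoters of the other 15 factors, and proteins, were not used here.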

Additional observations from a re-analysis of the deposited data

Results flagged for a closer look

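In 24 of 192 groups of libraries examined, the highest or lowest library lay farther from the others than Dixon's 95% limit, where chance gives about 1 in 20, or 9.6. In 17 of the 24 the library was Hyperoxia 1. It was the highest hyperoxic library for Eef1d (569 CPM, the other hyperoxic libraries 178 to 237), Eef1g (860, others 416 to 510), Eef2kmt (203, others 100 to 109), Eif2ak1 (169, others 94.2 to 112), Eif2b5 (231, others 68.4 to 96.6), Eif2s2 (2306, others 1053 to 1352), Eif3f (633, others 283 to 361), Eif3k (190, others 41.7 to 74.0) and Eif4e1b (20.4, others 4.16 to 8.53). It was the lowest for Eif2d (8.04 CPM, others 22.2 to 25.04), Eif3h (13.9, others 56.0 to 75.2) and Eif4enif1 (28.4, others 45.6 to 55.6). The same library was lowest for the log2 ratios of Eif1a to Eif1ax (-0.82, others -0.13 to 0.13) and of Eif4e to Eif4e2 (0.12, others 0.46 to 0.60). Its summed levels were highest for the eEF regulators (231 CPM, others 122 to 135), the eIF2 kinases (254, others 152 to 177) and eIF2B (462, others 231 to 270).

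Hyperoxia 3 was highest for Eif2b1 (68.8 CPM, others 24.1 to 38.9) and Eif3j1 (201, others 116 to 140), and Hyperoxia 5 for Eif4a2 (808, others 330 to 498). In normoxia, Normoxia 6 was lowest for Eif2ak1 (69.4 CPM, others 84.8 to 89.6), Normoxia 5 for Eif4e3 (69.8, others 94.8 to 112) and Normoxia 3 for the summed eIF4E genes (238, others 271 to 294), and Normoxia 4 was highest for Eif3i (157, others 66.6 to 102).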

How the results depend on the processing

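Eef1e1, Eif4ebp3 and Eef1a2 had few counts, and the cells that hold each transcript are not known in whole tissue. The main counts were 21 factors higher and 1 lower. The factors higher numbered 19 to 28 when a single library was left out, the highest without Hyperoxia 1, and the factors lower 1 to 3. Of the 22 factors, 20 kept their call in all 13 of these fits, the exceptions being Eef1e1 and Eef2. DESeq2 called 25 factors, all 22 among them with Eif2ak1, Eif3j1 and Eif4a1. Single left-out libraries added Eif4e2 (Hyperoxia 2), Eif2ak1, Eif2b4 and Eif3f (Hyperoxia 3), Eif2ak1 (Hyperoxia 4) and Eif4a2 (Hyperoxia 5). Limma-voom, limma on the log CPM values, library size only, the filter of 10 counts in every library, and the library set as a term each gave 2 factors lower, Eif4e3 with Eef2k or, with the library set, with Eif4a2. With limma on the log CPM values the median of all genes moved to -0.16 and that of the factors to 0.27, and with library size only to -0.10 and 0.34.

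Replicate numbers did not pair the samples, as the correlations of same-numbered deviations ran from -0.325 to 0.272 and 1 of 6 libraries correlated best with its own number. With the replicate number as a block, 12 factors were higher and 0 lower (Eif4e3 at an adjusted p of 0.0527), as were 703 and 588 of all genes, 11 other translation genes higher, 6 ribosomal proteins higher and 0 lower, and 0 ratios passed, where an exact sign-flip test was used. Within libraries B to M, 0 factors were lower, 679 of all genes were higher and 441 lower, with 8 other translation genes higher and 1 lower. Within O to S, 3 factors were lower. A ratio test cannot pass in O to S, where the smallest exact p is 0.2.

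Of all genes, 1256 to 1934 were higher and 1049 to 1699 lower without single libraries. Other translation genes numbered 16 to 18 higher and 2 to 4 lower, and 4 lower with limma on the log CPM values. Ribosomal proteins, 13 higher and 1 lower in the main fit, were 7 to 18 higher and 0 to 2 lower without single libraries. They were 7 higher under limma on the log CPM values, library size only, no filter, 10 counts in every library and within B to M, and 23 within O to S. They were 2 lower under limma-voom, limma on the log CPM values, library size only and 10 counts, and 0 lower under no filter, the library set, B to M and O to S. Ratios past the threshold numbered 2 to 9, 2 without Hyperoxia 2. The causes of these shifts were not tested.

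No called factor changed sign in any of the 23 other fits, and 14 of the 41 uncalled ones did in at least 1. Those whose fold change the report prints are as follows, on the log2 scale. Eif1b was -0.20 with limma on the log CPM values, -0.051 with library size only, -0.042 with 10 counts, -0.028 with the library set, -0.15 with the block and -0.56 within B to M, and ran from -0.10 to 0.20 without single libraries. Eif2a was -0.064, -0.038, -0.023 and -0.035 under the first 4 of these, -0.028 within B to M, and -0.016 to 0.15 without single libraries. Eif4b was -0.055 with limma on the log CPM values, -0.054 with library size only, -0.052 with 10 counts, and -0.0051 to 0.091 without single libraries. Eif4g3 was -0.029 with limma on the log CPM values and -0.074 to 0.40 without single libraries. Within O to S, Eef1a1 was 0.060, Eif3h 0.18, Eif4a3 0.45 and Eif4ebp2 0.48, and within B to M Eif2ak2 was 0.31. Without single libraries Eef1d ran from -0.0091 to 0.46, Eif3h from -0.27 to 0.023, Eif4a3 from -0.40 to 0.15 and Eif4ebp2 from -0.55 to 0.036. The ratio of Eif2s1 to Eif2s2 ran from -0.39 to 0.12.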
